A study of Mus musculus with 7 samples.

Results

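The keratin gene clusters of the mouse were described by their open chromatin in the embryonic gut. All protein-coding RefSeq genes named Krt plus a number were taken (Krtap genes left out), which gave 53 of 21631 protein-coding genes. Of these, 27 type I keratins lie in 1.04 Mb of chromosome 11 and 26 genes lie in 0.684 Mb of chromosome 15, namely 25 type II keratins and the type I gene Krt18. Peaks of 7 ATAC-seq libraries were merged into regions, and a region belonged to a keratin where that gene's body was the nearest protein-coding one within 100 kb. This left 288 keratin regions of 326695 (0.0882%), with at least 1 region at each of the 53 genes. The data are positions of accessible chromatin and hold no RNA levels.

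Keratins are the intermediate filament proteins of epithelia. A type I and a type II keratin pair to form the filament, and each epithelium uses a characteristic set of pairs. KRT8 and KRT18, with KRT7, KRT19 and KRT20, are the keratins of simple epithelia such as the lining of the intestine and the glandular stomach. KRT5 and KRT14 mark the basal layer of stratified squamous epithelium, KRT4 and KRT13 its upper layers in internal organs such as the oesophagus, and other members build epidermis, the hair shaft and the root sheath. In rodents the forestomach becomes squamous and the hindstomach glandular.

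There was 1 library in each of the 7 groups. They were stomach with a Sox2 knockout (KO) labelled E16, forestomach, hindstomach, intestine and colon labelled E16, and stomach and intestine labelled E13, where E is the embryonic day. The protocol text gives the stages as E13.5 and E16.5 and names ShhCre; R26YFP/+ embryos, whose YFP reporter follows Cre driven by the Shh locus, as the source of the E13 cells and of the E16 wild-type epithelium. Each E13 library came from 50000 sorted cells pooled over 3 to 4 embryos. Dispase and collagenase were used for the forestomach, and EDTA for the hindstomach (10 mM), the proximal small intestine and the colon (5 mM each). The Cre driver, the allele, the part of the stomach and the isolation behind the KO library are given in none of the sources used here. With 1 library per group no difference was tested. Intervals below are Wilson intervals at 95% and cover counting error only. Age, tissue, isolation method and library cannot be told apart.

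The lists held between 81179 peaks in E13 intestine and 135743 in E16 colon on the autosomes and X, and read depth is unknown. The smallest peak of a list measured between 62 bp (E13 intestine) and 108 bp (forestomach). All 5 epithelial marker genes (such as Epcam and Cdh1) had a region within 1 kb of a start in each of the 7 libraries. Starts of the 5 intestinal markers were open for 5 in KO stomach, 1 in forestomach, 3 in hindstomach, 3 in E13 stomach, 5 in E16 intestine, 4 in colon and 4 in E13 intestine. Those of the 5 glandular stomach markers were open for 3 in KO stomach, 2 in forestomach, 2 in hindstomach, 2 in E13 stomach, none in E16 intestine, none in colon and 1 in E13 intestine. Of the 4 squamous stomach markers, 3 were open in forestomach, 3 in colon and 2 in each of the other 5 libraries. Of 4 mesenchyme markers, 3 were open in KO stomach, hindstomach, E13 stomach and both intestine libraries, 1 in forestomach and none in colon. Of 3 blood and 3 neural crest markers, 2 each were open in KO stomach and 1 each in every other library. Of 3 endothelial markers, none was open in E16 intestine and colon and 1 in every other library. Over all protein-coding genes, between 54.1% (colon) and 69.6% (KO stomach) had a region within 1 kb of a start. The part of other cell types in the keratin counts was not tested. Sox2, the gene named in the knockout label, had 1 peak wholly inside its body in forestomach and in hindstomach and none there in KO stomach, E13 stomach, E16 intestine, colon or E13 intestine. A peak over the lower-coordinate end of Sox2 was present in KO stomach, hindstomach and E13 stomach and not in the other 4 libraries. Peak positions without counts cannot check the knockout label.

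The promoters of a few keratins are shown, some because their start peaks differ between libraries. Others are shown as the simple epithelial pair or for the lack of a peak over the start. Of the 53 keratins 36 matched the RefSeq promoter table (build GRCm38.p6), with 37 starts, since Krt13 has a pair of listed starts. Each line gives the 250 bases before a start, 5′ to 3′ along the gene. Capitals mark GGGCGG (a GC box), TGANTCA (the core of an AP-1 site) and ATAAA between 20 and 40 bases before the start (the place of a TATA box). A match is a description of the letters and not a shown binding site. Both strands were searched for the first pair of motifs and the gene's strand for ATAAA, a motif chosen after the sequences had been seen. Krt8 and Krt18 are the simple epithelial pair, Krt7 had its start region in the stomach lists alone, Krt23 had no start peak in colon and both E13 libraries, the starts of Krt13 differed from each other, and Krt5 had no peak over its start.
Krt8, chr15:102004343-102004592, minus strand: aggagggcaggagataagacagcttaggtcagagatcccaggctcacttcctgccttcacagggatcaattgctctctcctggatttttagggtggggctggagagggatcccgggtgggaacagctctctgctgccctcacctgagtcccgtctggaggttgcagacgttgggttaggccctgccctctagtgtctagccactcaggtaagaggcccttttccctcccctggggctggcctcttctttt
Krt18, chr15:102027966-102028215, plus strand: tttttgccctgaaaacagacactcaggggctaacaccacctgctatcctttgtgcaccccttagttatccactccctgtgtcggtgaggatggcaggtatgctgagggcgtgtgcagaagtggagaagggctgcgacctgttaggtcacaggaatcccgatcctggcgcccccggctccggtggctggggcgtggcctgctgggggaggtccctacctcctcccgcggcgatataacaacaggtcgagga
Krt7, chr15:101412153-101412402, plus strand: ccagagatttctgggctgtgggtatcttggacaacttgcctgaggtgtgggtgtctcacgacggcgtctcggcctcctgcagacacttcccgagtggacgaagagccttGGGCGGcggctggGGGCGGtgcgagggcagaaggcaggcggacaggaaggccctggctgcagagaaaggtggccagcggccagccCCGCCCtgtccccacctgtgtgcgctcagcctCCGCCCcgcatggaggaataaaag
Krt23, chr11:99493121-99493370, minus strand: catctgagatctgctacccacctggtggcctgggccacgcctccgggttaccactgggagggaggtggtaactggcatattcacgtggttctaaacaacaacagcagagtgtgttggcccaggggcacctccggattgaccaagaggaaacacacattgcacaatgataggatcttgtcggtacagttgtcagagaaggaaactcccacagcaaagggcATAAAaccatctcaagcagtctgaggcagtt
Krt13 start 1, chr11:100121567-100121816, minus strand: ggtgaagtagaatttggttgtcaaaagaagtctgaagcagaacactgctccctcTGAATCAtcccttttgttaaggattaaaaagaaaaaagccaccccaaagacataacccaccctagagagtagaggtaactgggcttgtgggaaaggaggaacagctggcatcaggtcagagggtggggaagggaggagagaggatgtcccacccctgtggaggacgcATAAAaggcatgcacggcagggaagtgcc
Krt13 start 2, chr11:100120578-100120827, minus strand: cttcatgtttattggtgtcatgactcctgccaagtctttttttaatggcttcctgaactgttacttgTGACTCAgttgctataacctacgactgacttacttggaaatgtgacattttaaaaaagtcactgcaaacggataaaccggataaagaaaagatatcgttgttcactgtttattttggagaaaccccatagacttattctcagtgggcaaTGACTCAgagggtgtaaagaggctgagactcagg
Krt5, chr15:101712906-101713155, minus strand: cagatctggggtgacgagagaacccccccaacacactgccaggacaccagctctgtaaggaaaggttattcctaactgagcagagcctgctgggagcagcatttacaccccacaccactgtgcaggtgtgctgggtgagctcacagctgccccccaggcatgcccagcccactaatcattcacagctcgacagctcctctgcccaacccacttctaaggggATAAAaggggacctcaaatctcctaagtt

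The promoter of Krt7 held 4 GGGCGG matches, at 141, 128, 56 and 24 bases before the start, and 16 CpG in the 250 bases. Krt18 had 12 CpG and Krt8 had 3. At Krt13 the outer start (start 1) has TGANTCA at 196 and ATAAA at 29 bases before it, and the inner start (start 2) has TGANTCA at 183 and 34 bases before it. Krt5 has ATAAA at 29 bases and Krt23 at 31 bases before the start. Over the 300-base windows, which add 50 bases after the start, 7 had a peak of at least 1 library over the start base and 30 had none there, although a peak could lie elsewhere in the window, as at Krt5. ATAAA between 20 and 40 bases before the start was found in 2 of those 7 windows and in 18 of those 30, against 4.53% of all 21045 promoter windows. TATAAA anywhere in the window, every match of which also contains ATAAA, was found in 2 of 7 and 17 of 30, against 12.7% of all windows. GGGCGG was found in 1 of 7 and 1 of 30, against 46.7% of all windows, and TGANTCA in 1 of 7 and 1 of 30, against 7.04%. The median number of CpG was 6 in the 7 windows and 4 in the 30, against 13 over all windows. TATAAA between 20 and 40 bases before the start was found in 1 of 7 and 12 of 30, against 2.56%. The 30 windows without a peak over the start base thus held the ATAAA letters, chosen after these sequences were seen, more often than promoters at large. They held GC boxes and CpG less often. The values of the 7 windows, a small number, lay on the same side.

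Peaks over a keratin start were few and fell mostly at the simple epithelial genes. A peak covered a start of 7 keratins in KO stomach, 6 in forestomach, 5 in hindstomach, 2 in E13 stomach, 3 in E16 intestine, 1 in colon and 3 in E13 intestine. The same was true of 57.7% of all protein-coding genes in KO stomach, 41.5% in forestomach, 44.2% in hindstomach, 51.4% in E13 stomach, 36.9% in E16 intestine, 32.4% in colon and 44.6% in E13 intestine. Where the table gives no strand, both ends of the gene counted as starts, which applied to 17 keratins, among them Krt19 and Krt80.

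**Figure D1:**
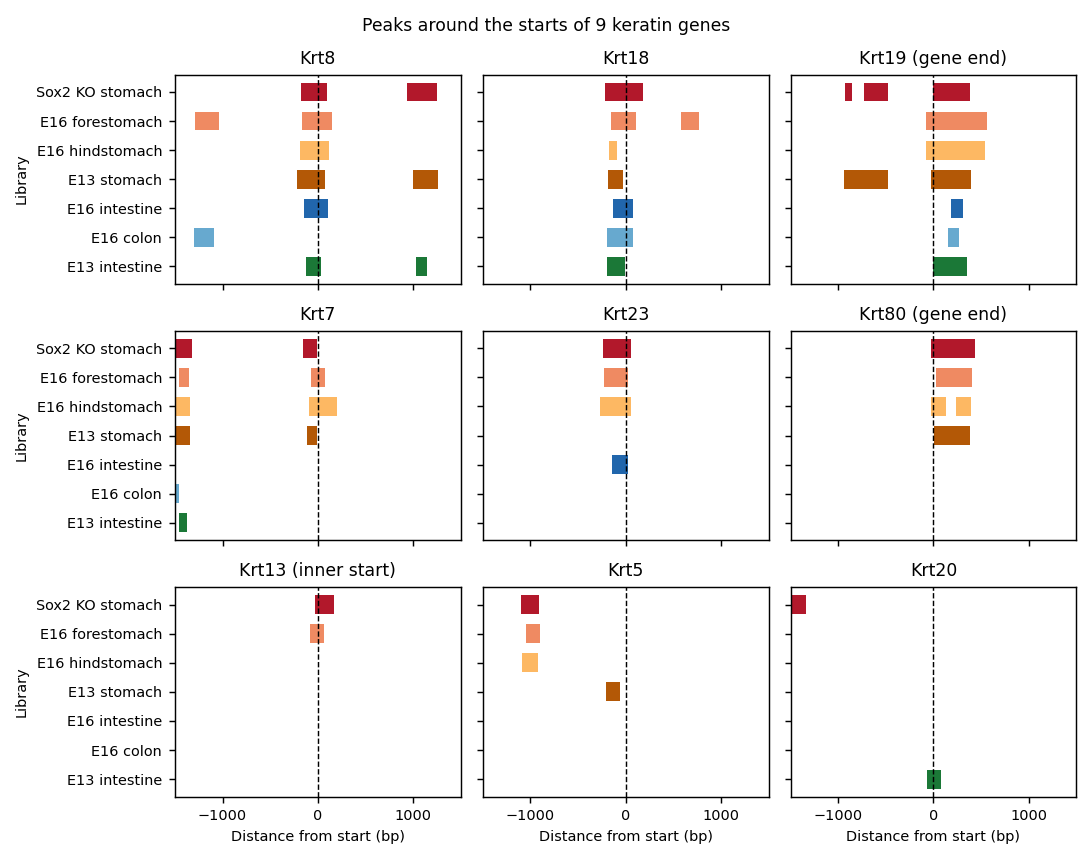
Peaks of each library (rows, coloured by library) by distance in bp from the start of 9 keratin genes, with negative values upstream; for Krt19 and Krt80, which have no strand in the table, the distance is from the end with the higher coordinate and positive values point to higher coordinates, and for Krt13 the start is the inner one (start 2). Within 1 kb of the start, Krt7 and Krt80 have peaks in the 4 stomach libraries alone, and Krt13 in KO stomach and forestomach alone.

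Krt8, the type II partner of KRT18, had a peak over its start in every library but colon. It was 276 bp wide in KO stomach, 311 bp in forestomach, 307 bp in hindstomach, 290 bp in E13 stomach, 257 bp in E16 intestine and 159 bp in E13 intestine. In colon the nearest peak lay 1092 bp upstream of the start. Krt18 had a region at its start, chr15:102027996-102028400, in all 7 libraries. The peak in it was 404 bp wide in KO stomach, 261 bp in forestomach, 91 bp in hindstomach, 159 bp in E13 stomach, 209 bp in E16 intestine, 266 bp in colon and 182 bp in E13 intestine. The peaks of KO stomach, forestomach, E16 intestine and colon covered the start itself, whereas those of hindstomach, E13 stomach and E13 intestine ended 88, 30 and 11 bp before it.

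Krt19, a type I keratin of simple epithelia that lacks the tail domain of its relatives, had a region over the higher-coordinate end of its body, chr11:100145846-100146490, in all 7 libraries. Its peak was 383 bp wide in KO stomach, 644 bp in forestomach, 625 bp in hindstomach and 420 bp in E13 stomach. The intestinal peaks were 125 bp in E16 intestine, 117 bp in colon and 360 bp in E13 intestine. The E16 intestine and colon peaks were thus the narrow ones, and they lay 183 and 148 bp beyond the gene's end. Peak width is the caller's boundary and is no measure of signal.

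Krt7, a type II keratin of glandular and ductal epithelia, had a region at its start, chr15:101412243-101412600, in the 4 stomach libraries and in none of the 3 intestinal ones. The peak was 149 bp wide in KO stomach, 149 bp in forestomach, 287 bp in hindstomach and 104 bp in E13 stomach. Those of forestomach and hindstomach covered the start, and those of KO stomach and E13 stomach ended 11 and 6 bp before it. Krt80, a type II keratin expressed widely in epithelia, showed the same division at the higher-coordinate end of its body, chr15:101370134-101370602. Its peak was 468 bp wide in KO stomach, 383 bp in forestomach and 380 bp in E13 stomach, and hindstomach had a pair of peaks of 161 and 155 bp. Outside the stomach no library had a peak within 1 kb of that end.

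Krt23, a type I keratin, had a peak over its start in 4 libraries. It was 298 bp wide in KO stomach, 249 bp in forestomach, 331 bp in hindstomach and 166 bp in E16 intestine, and colon, E13 stomach and E13 intestine had none there. Krt20, a type I keratin of differentiated gut epithelium, had a start peak of 148 bp in E13 intestine alone. No E16 library, intestine and colon included, had one at that start. Krt77, an epidermal type II keratin, had one of 159 bp in KO stomach alone.

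Of the 6 keratins of basal and internal squamous epithelium, 3 had a region within 1 kb of a start in KO stomach, 3 in forestomach, 2 in hindstomach, 4 in E13 stomach, none in E16 intestine, none in colon and 2 in E13 intestine. A peak over the start itself was found at Krt13 alone. Krt13, the type I keratin of the upper layers of internal squamous epithelium, had a peak over its inner start of 194 bp in KO stomach and 146 bp in forestomach, and in no other library. That region, chr11:100120412-100120660, was the single keratin region (0.347%) held by KO stomach and forestomach alone, against 0.333% of all regions. Krt5, the basal type II keratin, had a peak of 144 bp from 206 to 62 bp before its start in E13 stomach, and a region from 903 bp upstream, chr15:101713808-101714005, in KO stomach, forestomach and hindstomach. Krt14, its type I partner, had no peak within 1 kb of its listed start in any library. Krt4, the type II partner of KRT13, had no region at all in forestomach or hindstomach, and a region 370 bp from a gene end in E13 stomach and E13 intestine. The peaks in that region were 77 bp wide in E13 stomach and 62 bp in E13 intestine, the smallest width in each list. Krt15 had a region 724 bp from a gene end in E13 stomach alone. Krt78 had a merged region whose KO stomach peak lay 927 bp from its start. The other peaks in it lay 1116 bp away in forestomach, 1246 bp in hindstomach, 1232 bp in E13 stomach and 1272 bp in E13 intestine. In these libraries Krt78 is thus counted above through the merged region, without a peak of their own within 1 kb.

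Within 1 kb of a start, 15 keratins had a region in KO stomach, 16 in forestomach, 16 in hindstomach, 15 in E13 stomach, 12 in E16 intestine, 13 in colon and 12 in E13 intestine. As shares of the 53 genes these ran from 22.6% (13.5 to 35.5%) in both intestine libraries to 30.2% (19.5 to 43.5%) in forestomach and hindstomach. Over all protein-coding genes the share was 69.6% in KO stomach, 58.5% in forestomach, 62.7% in hindstomach, 66.3% in E13 stomach, 56.2% in E16 intestine, 54.1% in colon and 63.8% in E13 intestine. Each keratin share lay below the share of all genes in the same library, with its interval. A region counted for each library with a peak in it, also where that peak itself lay beyond 1 kb. This applied in forestomach to Krt9 (1085 bp), Krt17 (1210 bp) and Krt78 (1116 bp), and in KO stomach to Krt17 (1143 bp). It also applied to Krt78 in hindstomach, E13 stomach and E13 intestine. The order of the libraries depended on this rule and on the window. Within 500 bp the count was 10 in KO stomach, 10 in forestomach, 8 in hindstomach, 9 in E13 stomach, 6 in E16 intestine, 6 in colon and 9 in E13 intestine, so hindstomach no longer exceeded E13 intestine. The 15 other intermediate filament genes (such as Vim, Des and Lmna) ranged from 46.7% in E16 intestine to 86.7% in KO stomach, and the 14 genes whose proteins bind keratin filaments, the desmosomal genes Dsp and Jup among them, from 85.7 to 100%. Krtap genes, which encode hair shaft matrix proteins, had such a region for 7 of 56 in hindstomach and 29 of 56 in colon. In colon, Krtap genes therefore had such a region about as often as genes at large, which keratins did not. A region could count for more than 1 neighbouring gene, and either end counted for genes without a listed strand.

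**Figure D2:**
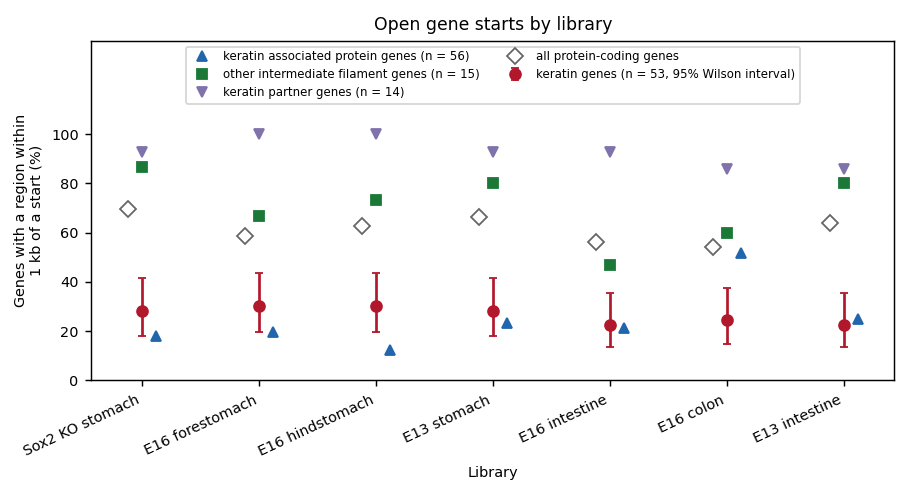
Percentage of genes with a region within 1 kb of a start (vertical axis) in each library (horizontal axis), for 53 keratins with 95% Wilson intervals, 3 other gene lists and all protein-coding genes. Keratins lie between 22.6 and 30.2% in all 7 libraries, below all protein-coding genes, which lie between 54.1 and 69.6%.

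Of the 288 keratin regions 113 (39.2%) had a peak in KO stomach, 101 (35.1%) in forestomach, 120 (41.7%) in hindstomach, 101 (35.1%) in E13 stomach, 86 (29.9%) in E16 intestine, 123 (42.7%) in colon and 59 (20.5%) in E13 intestine. Over all regions of the series the shares were 31.8% in KO stomach, 26.1% in forestomach, 33.3% in hindstomach, 28.2% in E13 stomach, 28.9% in E16 intestine, 40.8% in colon and 22.9% in E13 intestine. The 4 stomach libraries each held a larger share of keratin regions than of all regions, with intervals from 29.8 to 40.7% in forestomach and E13 stomach, from 33.8 to 45.0% in KO stomach and from 36.1 to 47.4% in hindstomach. In the 3 intestinal libraries the share of all regions lay inside the keratin interval, which was 24.9 to 35.4% in E16 intestine, 37.1 to 48.5% in colon and 16.2 to 25.5% in E13 intestine. Keratin regions all belong to a gene, and over the 264687 regions given to a protein-coding gene the shares were 35.4% in KO stomach, 27.5% in forestomach, 35.2% in hindstomach, 29.4% in E13 stomach, 29.5% in E16 intestine, 39.8% in colon and 23.7% in E13 intestine. On that base the KO value lay inside the keratin interval, and those of forestomach, hindstomach and E13 stomach still lay below theirs. Regions of the genes that bind keratins were held at 49.0% by KO stomach, 43.5% by forestomach, 48.5% by hindstomach, 40.6% by E13 stomach, 34.7% by E16 intestine, 36.4% by colon and 29.7% by E13 intestine, above all regions in each library but colon. Those of other intermediate filament genes were held at 51.7% by KO stomach, 33.9% by forestomach, 42.0% by hindstomach, 31.6% by E13 stomach, 31.0% by E16 intestine, 42.5% by colon and 25.3% by E13 intestine. A stomach share above that of all regions was thus not seen in keratins alone. Regions of Krtap genes were held at 15.6% by KO stomach, 20.8% by forestomach, 25.4% by hindstomach and 22.5% by E13 stomach, 27.2% by E16 intestine, 53.8% by colon and 20.2% by E13 intestine.

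**Figure D3:**
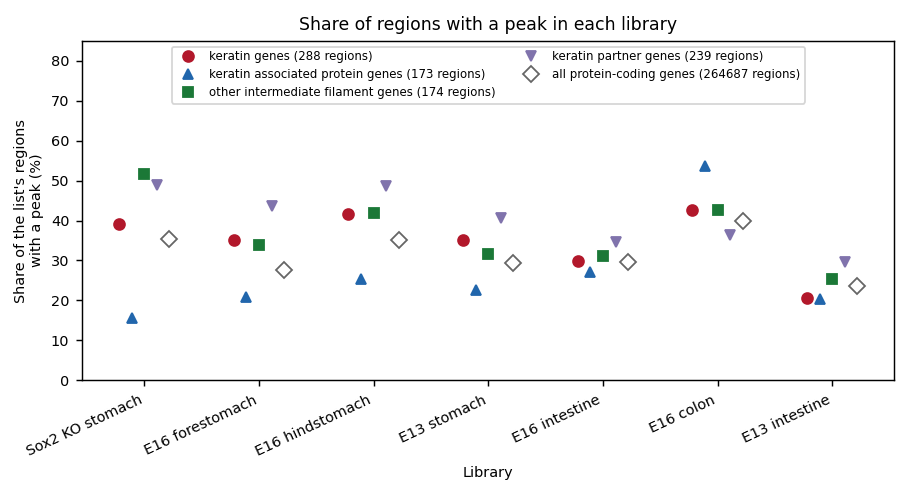
Percentage of a gene list's regions that have a peak (vertical axis) in each library (horizontal axis), for keratins, Krtap genes, other intermediate filament genes, keratin partner genes and all protein-coding genes. Keratin points lie above all protein-coding genes in the 4 stomach libraries and in colon (42.7 against 39.8%). They are nearly level in E16 intestine (29.9 against 29.5%) and lower in E13 intestine. Here the comparison set is the 264687 regions given to a protein-coding gene.

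By role, the type I simple epithelial genes held most regions per gene, with a median of 12.5. The median was 8 for the other epithelial genes and 7.5 for the type II simple epithelial genes. The 4 type I members Krt18, Krt19, Krt20 and Krt23 held 53 regions, of which 25 were in KO stomach, 26 in forestomach, 28 in hindstomach, 18 in E13 stomach, 20 in E16 intestine, 16 in colon and 14 in E13 intestine. The 2 type II members Krt7 and Krt8 held 15, of which 9 were in KO stomach, 6 in forestomach, 4 in hindstomach, 7 in E13 stomach, 1 in E16 intestine, 6 in colon and 5 in E13 intestine. At the other end, 14 hair shaft keratins shared 52 regions and 7 inner root sheath keratins 28. The median was 4 regions per keratin, against 7 for all protein-coding genes with a region. Role counts here and below stand beside the share of all regions in each library. That share was 31.8% in KO stomach, 26.1% in forestomach, 33.3% in hindstomach and 28.2% in E13 stomach. It was 28.9% in E16 intestine, 40.8% in colon and 22.9% in E13 intestine.

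**Figure D4:**
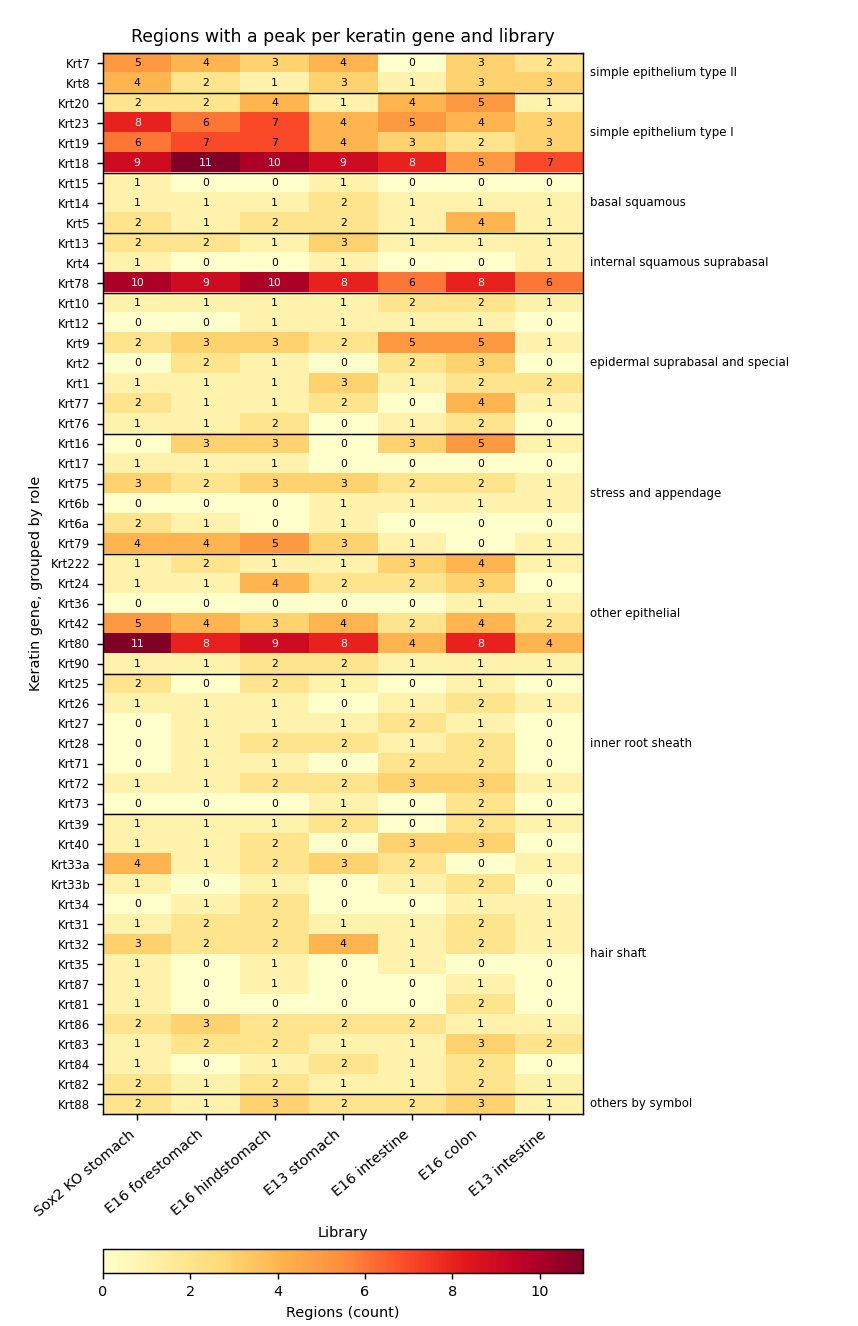
Number of regions with a peak (colour and digits) for each of the 53 keratins (rows, grouped by role) in each library (columns). The largest counts are at Krt80 (11 in KO stomach), Krt18 (11 in forestomach) and Krt78 (10 in KO stomach and hindstomach), and most hair shaft and root sheath keratins have 0 to 3.

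Krt18 had 19 regions, of which 9 were in KO stomach, 11 in forestomach, 10 in hindstomach, 9 in E13 stomach, 8 in E16 intestine, 5 in colon and 7 in E13 intestine. A group of 3 regions between 9903 and 11721 bp upstream of the start, in the stretch between Krt8 and Krt18, was open in all 7 libraries together with the start region. A region 8284 bp downstream, chr15:102040310-102040605, was held by the 4 stomach libraries alone. Krt8 had 4 regions in KO stomach, 2 in forestomach, 1 in hindstomach, 3 in E13 stomach, 1 in E16 intestine, 3 in colon and 3 in E13 intestine. Regions 936 bp inside the gene and 9301 bp upstream of it were shared by KO stomach, E13 stomach and E13 intestine and absent from the lists of wild-type E16 tissues. Krt7 had 5 regions in KO stomach, 4 in forestomach, 3 in hindstomach, 4 in E13 stomach, none in E16 intestine, 3 in colon and 2 in E13 intestine. Beside its start, regions 1316 bp upstream and 2472 bp inside the gene were in every list but that of E16 intestine.

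Krt19 had 6 regions in KO stomach, 7 in forestomach, 7 in hindstomach, 4 in E13 stomach, 3 in E16 intestine, 2 in colon and 3 in E13 intestine. Forestomach and hindstomach shared 3 regions around it that no other library held, 1 of which, chr11:100157410-100158324, was 914 bp wide. Krt23 had 8 regions in KO stomach, 6 in forestomach, 7 in hindstomach, 4 in E13 stomach, 5 in E16 intestine, 4 in colon and 3 in E13 intestine. Its stomach-only region, chr11:99468632-99469042, lay 8931 bp downstream. Krt20 had 2 regions in KO stomach, 2 in forestomach, 4 in hindstomach, 1 in E13 stomach, 4 in E16 intestine, 5 in colon and 1 in E13 intestine. A region inside Krt20, chr11:99435029-99435384, and another 996 bp downstream were held by hindstomach, E16 intestine and colon and by no other library. Among the simple epithelial genes Krt20 was thus the one with its highest count in colon.

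The basal squamous genes had few regions. Krt5 had 2 in KO stomach, 1 in forestomach, 2 in hindstomach, 2 in E13 stomach, 1 in E16 intestine, 4 in colon and 1 in E13 intestine. A region inside Krt5, chr15:101709385-101709703, was held by hindstomach, E16 intestine and colon and not by forestomach. Krt14 had 2 regions in E13 stomach and 1 in each of the other 6 libraries. A region within its body toward the 3′ end, chr11:100203518-100203718, was in KO stomach, forestomach, hindstomach, E13 stomach and E13 intestine. Krt15, another basal type I keratin, had 1 region in KO stomach and 1 in E13 stomach and none in the other 5 libraries. No count at these 3 genes was highest in forestomach.

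Among keratins of internal squamous epithelium, Krt13 had 2 regions in KO stomach, 2 in forestomach, 1 in hindstomach, 3 in E13 stomach, 1 in E16 intestine, 1 in colon and 1 in E13 intestine. Krt4 had 1 region in KO stomach, none in forestomach, none in hindstomach, 1 in E13 stomach, none in E16 intestine, none in colon and 1 in E13 intestine. Krt78, a type II keratin, had 10 regions in KO stomach, 9 in forestomach, 10 in hindstomach, 8 in E13 stomach, 6 in E16 intestine, 8 in colon and 6 in E13 intestine. The Krt78 body in the annotation spans 50624 bp and ends 87 bp from Krt8, and 16 of its 18 regions lie beyond its listed start on the side of Krt8. These regions may as well be counted with Krt8, and no value here assigns a region to a gene it acts on.

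The stress and appendage keratins, which include genes induced in wounded skin, did not share one pattern. Krt16 had no region in KO stomach, 3 in forestomach, 3 in hindstomach, none in E13 stomach, 3 in E16 intestine, 5 in colon and 1 in E13 intestine. Krt6a had 2 regions in KO stomach, 1 in forestomach and 1 in E13 stomach and none in the other 4 libraries. The forestomach regions 15 bp from an end of Krt6a (375 bp wide) and 199 bp from an end of Krt16 (244 bp wide) were in no other list. Krt79, a type II keratin of hair follicle openings and sebaceous ducts, had 4 regions in KO stomach, 4 in forestomach, 5 in hindstomach, 3 in E13 stomach, 1 in E16 intestine, none in colon and 1 in E13 intestine. Krt75 had 3 regions in KO stomach, 2 in forestomach, 3 in hindstomach, 3 in E13 stomach, 2 in E16 intestine, 2 in colon and 1 in E13 intestine. Krt16 was high in E16 wild-type libraries, whereas Krt79 was high in stomach libraries of both stages. Krt17 and Krt6b held 1 and 2 regions.

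Of the other epithelial keratins, Krt80 had 11 regions in KO stomach, 8 in forestomach, 9 in hindstomach, 8 in E13 stomach, 4 in E16 intestine, 8 in colon and 4 in E13 intestine. Krt42, a type I keratin, had 5 in KO stomach, 4 in forestomach, 3 in hindstomach, 4 in E13 stomach, 2 in E16 intestine, 4 in colon and 2 in E13 intestine. The 2 intestine libraries were lowest for both genes, and colon was level with stomach libraries. Krt24 had 1 region in KO stomach, 1 in forestomach, 4 in hindstomach, 2 in E13 stomach, 2 in E16 intestine, 3 in colon and none in E13 intestine. Krt222 had 1 in KO stomach, 2 in forestomach, 1 in hindstomach, 1 in E13 stomach, 3 in E16 intestine, 4 in colon and 1 in E13 intestine. Krt90 had 2 regions in hindstomach and 2 in E13 stomach and 1 in each of the other 5 libraries. Krt36 held 1 region. Outside the role groups, Krt88 had 2 regions in KO stomach, 1 in forestomach, 3 in hindstomach, 2 in E13 stomach, 2 in E16 intestine, 3 in colon and 1 in E13 intestine.

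The 7 epidermal keratins held 28 regions, of which 7 were in KO stomach, 9 in forestomach, 10 in hindstomach, 9 in E13 stomach, 12 in E16 intestine, 19 in colon and 5 in E13 intestine. Over all regions the share was 31.8% in KO stomach, 26.1% in forestomach, 33.3% in hindstomach and 28.2% in E13 stomach. It was 28.9% in E16 intestine, 40.8% in colon and 22.9% in E13 intestine. Krt9, a keratin of palm and sole skin, had 2 regions in KO stomach, 3 in forestomach, 3 in hindstomach, 2 in E13 stomach, 5 in E16 intestine, 5 in colon and 1 in E13 intestine. Krt77 had 2 in KO stomach, 1 in forestomach, 1 in hindstomach, 2 in E13 stomach, none in E16 intestine, 4 in colon and 1 in E13 intestine. Krt1, a keratin of the upper epidermis, had 3 regions in E13 stomach, 2 in colon, 2 in E13 intestine and 1 in each of the other 4 libraries. Its region chr15:101845970-101846427 was open in all 7. Krt2 had none in KO stomach, 2 in forestomach, 1 in hindstomach, none in E13 stomach, 2 in E16 intestine, 3 in colon and none in E13 intestine. Krt76 had 1 region each in KO stomach, forestomach and E16 intestine, 2 each in hindstomach and colon, and neither E13 library had one. Krt10 and Krt12 held 2 regions each, and the Krt10 region chr11:99385934-99386627 was open in all 7 libraries.

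Inner root sheath keratins, which form the sleeve around the growing hair, held 4 regions in KO stomach, 5 in forestomach, 9 in hindstomach, 7 in E13 stomach, 9 in E16 intestine, 13 in colon and 2 in E13 intestine. Krt72 had 1 region in KO stomach, 1 in forestomach, 2 in hindstomach, 2 in E13 stomach, 3 in E16 intestine, 3 in colon and 1 in E13 intestine. Krt28 had none in KO stomach, 1 in forestomach, 2 in hindstomach, 2 in E13 stomach, 1 in E16 intestine, 2 in colon and none in E13 intestine. Krt26 had none in E13 stomach, 2 in colon and 1 in each of the other 5 libraries. Krt25 had 2 regions in KO stomach, 2 in hindstomach, 1 in E13 stomach and 1 in colon, and none in forestomach, E16 intestine or E13 intestine. Krt71 had no region in KO stomach or at E13, 1 in each E16 stomach part and 2 each in E16 intestine and colon, and Krt73 had 1 in E13 stomach and 2 in colon alone. Colon or a tie with colon was the highest count for Krt72, Krt28, Krt26, Krt71 and Krt73, and not for Krt25 or Krt27. Krt27 had 2 regions in E16 intestine, none in KO stomach or E13 intestine and 1 in each of the other 4 libraries. Colon held 46.4% (29.5 to 64.2%) of the 28 regions of the group, near its 40.8% of all regions.

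The 14 hair shaft keratins held 20 regions in KO stomach, 14 in forestomach, 21 in hindstomach, 16 in E13 stomach, 14 in E16 intestine, 23 in colon and 9 in E13 intestine. Krt32 had 3 regions in KO stomach, 2 in forestomach, 2 in hindstomach, 4 in E13 stomach, 1 in E16 intestine, 2 in colon and 1 in E13 intestine. Krt33a had 4 in KO stomach, 1 in forestomach, 2 in hindstomach, 3 in E13 stomach, 2 in E16 intestine, none in colon and 1 in E13 intestine. Its stomach-only region, chr11:100013712-100014178, lay inside the gene. Krt40 had 1 in KO stomach, 1 in forestomach, 2 in hindstomach, none in E13 stomach, 3 in E16 intestine, 3 in colon and none in E13 intestine. Krt83 had 3 regions in colon, 2 each in forestomach, hindstomach and E13 intestine, and 1 each in KO stomach, E13 stomach and E16 intestine. Krt31 had 2 each in forestomach, hindstomach and colon and 1 in each of the other 4 libraries. These genes differed in which library was highest, with E13 stomach first at Krt32 and KO stomach first at Krt33a. Krt86 had 2 regions in KO stomach, 3 in forestomach, 2 in hindstomach, 2 in E13 stomach, 2 in E16 intestine, 1 in colon and 1 in E13 intestine. Krt84 had 1 in KO stomach, none in forestomach, 1 in hindstomach, 2 in E13 stomach, 1 in E16 intestine, 2 in colon and none in E13 intestine. Krt82 had 2 each in KO stomach, hindstomach and colon and 1 in each of the other 4 libraries. The remaining named members, Krt33b, Krt39 and Krt81, each held 3 regions. Krt33b had 2 in colon and 1 each in KO stomach, hindstomach and E16 intestine, Krt39 had 2 each in E13 stomach and colon, none in E16 intestine and 1 in each of the other 4 libraries, and Krt81 had 1 in KO stomach and 2 in colon. Krt34, Krt35 and Krt87 held 2, 2 and 1 regions.

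At E13, stomach held many more of the unshared keratin regions than intestine. Stomach alone held 59 regions, intestine alone 17, and both 42, so stomach held 77.6% (67.1 to 85.5%) of the unshared ones, against 60.1% over all regions. Shared regions were 35.6%, against 32.2%. Of 44 keratins with a region in either library 31 had more in stomach and 5 more in intestine, whereas over all protein-coding genes 47.1% had more in stomach and 21.6% more in intestine. The stomach share was 73.7% on chromosome 11 and 81.6% on chromosome 15, so both clusters leaned the same way. It was 66.7% for other intermediate filament genes, 71.0% for keratin partner genes and 54.2% for Krtap genes. At Krt80 stomach alone held 5 regions and intestine alone 1, and at Krt32 stomach alone held 3 and intestine alone none.

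At E16, hindstomach alone held 61 keratin regions, intestine alone 27, and both 59. Shared regions were 40.1%, against 33.1% of all regions of the pair. Hindstomach held 69.3% (59.0 to 78%) of the unshared ones, against 57% over all regions. Of 47 keratins 25 had more in hindstomach and 9 more in intestine, against 49.4% and 25% of all genes. The hindstomach share was 62.8% (47.9 to 75.6%) on chromosome 11 and 75.6% (61.3 to 85.8%) on chromosome 15. Keratin partner genes had 69.0%, other intermediate filament genes 66.1% and Krtap genes 47.1%. The keratins with the largest excess in hindstomach were Krt80 (6 hindstomach-only regions and 1 intestine-only), Krt19 (5 and 1), Krt78 (5 and 1) and Krt79 (4 and 0). Krt9 and Krt222 went the other way, with no hindstomach-only and 2 intestine-only regions each.

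Forestomach and hindstomach shared more of their keratin regions than of regions at large. Both held 83 regions, forestomach alone 18 and hindstomach alone 37, so 60.1% (51.8 to 67.9%) were shared, against 45.3% of all regions of the pair. Forestomach held 32.7% (21.8 to 45.9%) of the unshared ones, against 34% over all regions. With each list cut to its 81179 widest peaks the direction turned, and forestomach held 57.1%, beside 51.0% over all regions. Of 47 keratins 9 had more in forestomach and 23 more in hindstomach, against 15.4% and 54.2% of all genes. Keratin partner genes had 87 regions in both libraries, 17 in forestomach alone and 29 in hindstomach alone. For other intermediate filament genes these counts were 48, 11 and 25, and for Krtap genes 20, 16 and 24. A shared part above that of all regions was thus not seen in keratins alone. No keratin had a net excess of 2 or more regions in forestomach, and Krt24 had 3 in hindstomach alone and none in forestomach alone. The squamous keratins Krt5, Krt14 and Krt15 together had no region in forestomach alone and 1 in hindstomach alone, whereas Krt4, Krt13 and Krt78 together had 2 and 2, with Krt13 at 1 in forestomach alone and none in hindstomach alone.

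**Figure D5:**
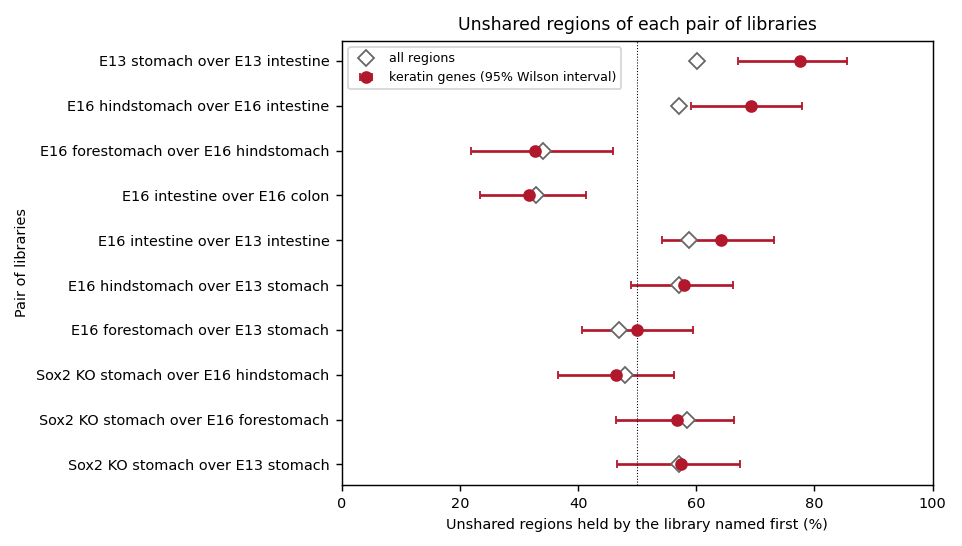
For each pair of libraries, the percentage of unshared keratin regions held by the library named first (filled points, with 95% Wilson intervals), beside the same over all regions (open diamonds); the dotted line marks 50%. The keratin interval lies above the value for all regions in E13 stomach over E13 intestine and in E16 hindstomach over E16 intestine, and spans it in the other 8 pairs.

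E16 intestine alone held 32 keratin regions, colon alone 69 and both 54. Intestine thus held 31.7% (23.4 to 41.3%) of the unshared ones, against 32.8% over all regions, and 34.8% were shared, against 33.8%. With each list cut to its 81179 widest peaks, intestine held 47.3%, beside 49.2% over all regions. Of 49 keratins 8 had more in intestine and 30 more in colon, against 21.3% and 53.7% of all genes. Colon-only regions included 5 at Krt80 and 4 at Krt77, and Krt18 was the gene with the clearest opposite count, with 3 regions in intestine alone and none in colon alone. Of the 123 colon regions 48 (39.0%) were in no other library, against 41.5% of all colon regions.

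Between stages, E16 intestine alone held 61 regions, E13 intestine alone 34 and both 25 (20.8%, against 20.1%), so E16 intestine held 64.2% (54.2 to 73.1%) of the unshared ones, against 58.7% over all regions. Of 46 keratins 23 had more at E16 and 9 more at E13, against 47.8% and 26.6% of all genes. Krt9 had 4 regions in E16 intestine alone and none in E13 intestine alone, and Krt20 had 4 and 1. Krt7 and Krt8 went the other way, each with none in E16 intestine alone and 2 in E13 intestine alone. E16 hindstomach alone held 70 and E13 stomach alone 51, with 50 in both (29.2%, against 26.5%), a hindstomach share of 57.9% (48.9 to 66.3%) against 57.1%. Of 51 keratins 25 had more in hindstomach and 16 more in E13 stomach, against 49.6% and 25.2% of all genes. E16 forestomach and E13 stomach each held 53 alone and 48 together (31.2%, against 24.6%), a forestomach share of 50% (40.6 to 59.4%) against 46.8%. Of 48 keratins 19 had more in forestomach and 22 more in E13 stomach, against 32.5% and 40.5%. Krt16 had 3 regions in each E16 stomach part and none in E13 stomach, whereas Krt1 had 2 regions in E13 stomach alone against either part.

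KO stomach shared more keratin regions than regions at large with either E16 stomach part, while the excess over E13 stomach lay within the counting interval. KO stomach alone held 44 regions against hindstomach, hindstomach alone 51, and both 69, a KO share of 46.3% (36.6 to 56.3%) of unshared regions against 47.9%. The shared part was 42.1% (34.8 to 49.7%), against 30.6% of all regions of the pair. Of 50 keratins 13 had more in KO stomach and 20 more in hindstomach, against 36.4% and 38.1% of all genes. Keratin partner genes had 73 regions in both libraries, 44 in KO stomach alone and 43 in hindstomach alone. For other intermediate filament genes these counts were 46, 44 and 27, and for Krtap genes 12, 15 and 32. Against forestomach, KO stomach alone held 51, forestomach alone 39 and both 62, a KO share of 56.7% (46.4 to 66.4%) against 58.5%, and 40.8% (33.3 to 48.7%) were shared, against 26.3%. With the lists cut to equal length as above, the KO share against forestomach was 44.9%, beside 49.96% over all regions. Of 49 keratins 22 had more in KO stomach and 13 more in forestomach, against 51.9% and 24.3%. Keratin partner genes had 67 regions in both libraries, 50 in KO stomach alone and 37 in forestomach alone. For other intermediate filament genes these counts were 37, 53 and 22, and for Krtap genes 7, 20 and 29. The larger shared part with either E16 stomach part was thus not particular to keratins. Against E13 stomach, KO stomach alone held 47, E13 stomach alone 35 and both 66, a KO share of 57.3% (46.5 to 67.5%) against 57.1%, and 44.6% (36.8 to 52.6%) were shared, against 39.9%. Of 48 keratins 21 had more in KO stomach and 14 more in E13 stomach, against 48% and 23.7%. These comparisons share the KO library and are not independent of each other.

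By gene, Krt8 had 3 regions in KO stomach alone and none in hindstomach alone, and Krt7 had 2 and none. Krt16 had none in KO stomach alone and 3 in hindstomach alone, and likewise 3 in forestomach alone. Krt80 had 4 in KO stomach alone and 2 in hindstomach alone, and Krt24 had 1 and 4. Simple epithelial type II genes together had 5 KO-only and no hindstomach-only regions, simple epithelial type I genes 10 and 13, and inner root sheath genes 1 and 6. These counts are small, and over all regions of the pair KO stomach held 47.9% of the unshared ones.

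Patterns over all 7 libraries gave few regions that separated the organs. In all 7 libraries 16 keratin regions (5.56%, 3.45 to 8.83%) were open, against 4.46% of all regions, at 11 genes that included Krt18 with 4 and Krt78 and Krt80 with 2 each. A single library held 132 (45.8%), against 55.3%, and 2 to 6 libraries held 140 (48.6%), against 40.2%. Merged regions in all 7 had a median width of 479 bp and those in 1 library 102 bp. In all 3 wild-type stomach libraries and no wild-type intestinal one there were 8 regions (2.78%, 1.41 to 5.38%), against 1.29% of all regions. They were those named above at the starts of Krt7 and Krt80, inside Krt33a and downstream of Krt18 and Krt23, one inside Krt78 (chr15:101966860-101967208), a further one 17106 bp beyond Krt80 (chr15:101387268-101387466) and one 4821 bp upstream of Krt28 (chr11:99379724-99379837). KO stomach held 7 of the 8, all but that of Krt28 (87.5%, 52.9 to 97.8%), against 84.7% of all regions of this pattern. The opposite pattern, all 3 wild-type intestinal libraries and no wild-type stomach one, had 0 of 288 regions, which allows a share of up to 1.04% (3 counts of the total), against 0.287% of all regions.

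Forestomach and hindstomach shared 31 keratin regions (10.8%, 7.69 to 14.9%) that neither E16 intestine nor colon held, against 5.54% of all regions. KO stomach held 22 of the 31 (71.0%, 53.4 to 83.9%), against 59.2% of all such regions, and E13 stomach held 15 (48.4%), against 40.8%. E13 intestine held 7 of the 31 (22.6%), against 20.3%. The converse, E16 intestine and colon without either stomach part, had 9 regions (3.13%), against 4.25%. KO stomach held 0 of these 9, which allows a share of up to 33.3% (3 counts of the total), against 5.04% of all such regions.

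A further 11 regions (3.82%) were in hindstomach, E16 intestine and colon but not in forestomach, against 2.71% of all regions, at Krt5, Krt12, Krt16, Krt20, Krt33b, Krt40, Krt72, Krt75 and Krt88. KO stomach held 1 of these 11, at Krt75, against 15.7% of all such regions. All 4 wild-type E16 libraries held 31 regions (10.8%), against 9.51%, and KO stomach held 19 of them (61.3%), against 54.9%. A set of 11 (3.82%) was in the 4 wild-type E16 libraries and in neither E13 library nor KO stomach, against 3.38%, and included 2 at Krt16 and 1 each at Krt2, Krt9 and Krt20. Likewise 11 (3.82%) were in E13 stomach and KO stomach alone, against 2.84%, at Krt18, Krt19, Krt20 and Krt23 among others. Forestomach alone held 7 (2.43%), against 3.67%.

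KO stomach had 40 keratin regions (35.4% of its 113, 27.2 to 44.6%) that neither forestomach nor hindstomach held, against 48.5% of all its regions. E13 stomach held 17 of these 40 (42.5%, 28.5 to 57.8%), against 32.8%, and E16 intestine or colon held 1 (2.5%, 0.443 to 12.9%), against 8.23%. Of the 83 regions common to forestomach and hindstomach 58 (69.9%, 59.3 to 78.7%) were in KO stomach, against 59% over all regions and 62.6% over the regions of protein-coding genes. E13 stomach regions were found again in either E16 stomach part for 54 of 101 (53.5%), against 49.7%, and E13 intestine regions in E16 intestine for 25 of 59 (42.4%), against 37.8%.

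Both clusters were denser in regions than the genome. The chromosome 11 stretch, between 99232761 and 100269951, held 61.7 regions per Mb in KO stomach, 62.7 in forestomach, 72.3 in hindstomach, 62.7 in E13 stomach, 60.7 in E16 intestine, 92.6 in colon and 43.4 in E13 intestine. The chromosome 15 stretch, between 101348315 and 102032026, held 83.4 in KO stomach, 74.6 in forestomach, 81.9 in hindstomach, 79.0 in E13 stomach, 52.7 in E16 intestine, 96.5 in colon and 49.7 in E13 intestine. The genome had 39.5 per Mb in KO stomach, 32.4 in forestomach, 41.3 in hindstomach, 35.0 in E13 stomach, 35.9 in E16 intestine, 50.6 in colon and 28.4 in E13 intestine. On chromosome 11 the count includes regions of other genes in the stretch, among them 23 of 56 Krtap genes. Counting keratin regions alone over that length gave 40.5 per Mb in KO stomach, 51.1 in hindstomach, 50.1 in colon and 19.3 in E13 intestine. These values cannot be set against the genome's, which count all regions, because the length still includes 0.444 Mb that Krtap genes occupy. That part held 47.3 regions per Mb in KO stomach and hindstomach, 96.9 in colon and 54.1 in E13 intestine.

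Keratin regions lay inside gene bodies less often than other regions, 103 of 288 (35.8%) against 58.4% of all regions given to a gene. Those outside lay a median of 5388 bp from the gene, between 14 and 24955 bp, so none lay near the 100 kb limit. The median width of the 288 regions was 168.5 bp, against 136 bp for all regions.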

How the data were processed

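ATAC-seq, which marks accessible chromatin by the insertion of a transposase, was measured in 7 mouse libraries, 1 per group. Trimming with cutadapt, alignment with Bowtie2 and peak calling with MACS2 on GRCm38/mm10 are named in the submitters' processing notes. Their versions, thresholds and any pooling of libraries were not given in the sources used here. Each deposited list gives peak positions in 3 columns and nothing on height, score or reads (unit: other), so nothing was normalized. Counting from 0 or from 1 is not stated in them, positions are printed as deposited, and read depth is unknown.

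Overlapping peaks of the 19 autosomes and X (at least 1 bp) were merged into regions. A region went to the protein-coding gene whose body lay closest, up to 100 kb away, in the RefSeq GRCm38.p6 annotation. Gene starts came from the RefSeq promoter table, or both gene ends where a gene is not in it. A region near a start counted for every library with a peak in it, even where that peak lay outside the window. Promoter letters were searched for exact matches. On simulated peaks planted inside 1497 gene bodies, the library pattern and the gene were recovered for 1497. These peaks lay well apart and any gene containing the peak was accepted, so assignment outside gene bodies was not checked. Named with values are keratins with at least 3 regions and 10 keratins of gut and squamous epithelium, and single regions at a start or confined to the wild-type libraries of one organ and found in all of them. Other regions named in the text were chosen after their values were seen. The members, lists and named-gene rule were chosen with earlier results of these data known. Alternatives changed the overlap, the distance, merging, peak width, gene ends, gene types, the start window and the cluster span. Leaving out Krt78 and setting shares beside regions of protein-coding genes alone were added after the data were seen. Python 3.11.15 with pandas 2.3.3, numpy 2.4.6, scipy 1.17.1 and matplotlib 3.10.9 was used.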

Additional observations from a re-analysis of the deposited data

How the results depend on the processing

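Of 178 alternative values 161 stayed within 1.5 times the main count or inside its counting interval, 16 moved and 1 reversed. A share inside the interval could still differ from the main value in direction. The 17 values for assignment within 50 kb could not change, since the farthest keratin region lay 24955 bp from its gene. With lists cut to 81179 peaks, keeping wide peaks first, forestomach held 57.1% of the regions unshared with hindstomach (24 against 18), the reverse of the main value, beside 51.0% over all regions. In that setting colon kept 78 keratin regions, E16 intestine held 47.3% of those unshared with colon and KO stomach 44.9% of those unshared with forestomach. The cause of these shifts was not tested. The stomach lean was kept there, at 72.9% in E13 stomach over E13 intestine (51.5% over all regions) and 63.3% in hindstomach over E16 intestine (49.8% over all regions). A start window of 500 bp gave 10 keratins in forestomach, 8 in hindstomach, 9 in E13 stomach, 6 in E16 intestine, 6 in colon and 9 in E13 intestine, and 2500 bp gave 27 in KO stomach, 27 in hindstomach and 24 in colon. Keratin regions alone gave 40.5 per Mb of the chromosome 11 cluster in KO stomach, 39.5 in forestomach, 36.6 in E13 stomach, 50.1 in colon and 19.3 in E13 intestine. Without Krt78 all 17 values tried stayed the same in this sense. Over regions of protein-coding genes in place of all regions, a base chosen after the values were seen, 2 of 35 shares compared changed side of the keratin interval, namely the regions held by KO stomach and those common to forestomach and hindstomach that KO stomach held. No paired analysis was possible because each group has 1 library and no test was made. Depth, unknown here, limits which regions a list can hold.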
